A study of Mus musculus with 13 samples.

Results

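The genes described here are 39 interferon-induced antiviral genes of the mouse, followed across fibroblasts, their derivatives programmed with Foxn1 and thymic epithelial cells of the fetus. They were taken by symbol from known interferon-stimulated genes, with no threshold on their values but with earlier results of these data known, and they are 39 of the 24394 genes in the count table. All 39 passed the filter on low counts. When a cell detects viral RNA or DNA, or double-stranded RNA of its own, it secretes type I or type III interferon. Receptor binding activates the Jak kinases, and the factor ISGF3, which includes Stat2 and Irf9, then enters the nucleus and binds the interferon-stimulated response element in the promoters of these genes. Their products sense nucleic acids, block viral entry, translation and replication, or amplify and restrain the response, and in the thymus some of them are also made without infection.

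The study made induced thymic epithelial cells (iTEC) from mouse embryonic fibroblasts (MEF) with Foxn1, the master regulator of the thymic epithelial cell (TEC) lineage. RNA was sequenced from 13 libraries in 6 groups. The fibroblasts were primary iFoxn1/+ cells, which carry 1 copy of a Foxn1 transgene that Cre switches on, and were passaged at most 5 times. Cre came from the plasmid pPGK-Cre-bpA, put into the cells by nucleofection. Untreated MEF of embryonic age E13.5 made 2 libraries. Cultures given Cre made 2 libraries on day 2, 3 on day 10 and 4 on day 12, of which 2 were of Epcam-negative and 2 of Epcam-positive sorted iTEC. Untreated TEC of E15.5 fetuses made the remaining 2. The same iFoxn1/+ protocol text stands under every sample, and the genotype field is not filled in, so the genotype of the fetal TEC is not given. No library used here is labelled as having had an empty plasmid or nucleofection alone, so the expression of Foxn1 and the procedure itself cannot be told apart. Nothing says that replicates were separate cultures or animals, so p-values measure the spread between these libraries, which may be technical.

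Levels are given in CPM, that is, counts divided by library size times a normalization factor (TMM). Changes are log2 values ± standard error, and a gene counts as called when its p-value from edgeR's quasi-likelihood test, adjusted over the 17004 genes tested, was under 0.05. Libraries held 35805780 to 86465460 counts, so 3 counts correspond to 0.0300 to 0.0776 CPM. Foxn1 had 18.3 and 12.997 CPM in MEF and 292 to 468 CPM in all other libraries. Epcam, the sort marker, had 0 in both MEF libraries, 0.560 and 0.290 CPM in Epcam-negative, 4.80 and 30.6 CPM in Epcam-positive and 312 and 574 CPM in fetal TEC libraries. In 3 libraries, Epcam-positive replicate 2 and both fetal TEC, levels did not rise with transcript length across genes (Spearman's rho -0.013, -0.014 and -0.060, against 0.270 to 0.309 in the other 10 libraries), and long transcripts were under-represented there. Xist stood at 688 to 2475 CPM in MEF and Epcam-negative libraries and at no more than 1.27 CPM in the day 2, day 10 and Epcam-positive libraries, where the Y-linked genes Ddx3y, Eif2s3y, Uty and Kdm5d summed to 65.6 to 301.6 CPM. Fetal TEC held both, with Xist at 6.17 and 10.6 CPM and the Y-linked genes at 41.6 and 42.3 CPM. In comparisons between these sets the treatment and the sex of the embryos therefore cannot be told apart. Day 10 against day 2 and Epcam-negative against MEF are free of this difference.

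The promoters of several of the genes hold the core of the response element that ISGF3 binds, and these are shown because the members moved together. RefSeq promoters (build GRCm38.p6) were found for 30 of the 39 genes, and the 250 bases before each start were searched on both strands. The core of the element (GAAA, any 2 bases, GAAA) was found in 14 of the 30 (46.7%), against 590 of 17224 genes (3.43%). The members were chosen as known interferon-stimulated genes, so this share is no independent result. Oasl1, Irf7, Ifi44 and Cmpk2, which rose strongly at day 2, had no match in the bases searched. The element TTCNNNGAA, a palindrome found in promoters that respond to interferon gamma, was found in 4 of the 30 (13.3%), against 7.94% of genes, and 2 of the 30 held both. In the stretches below, read 5′ to 3′ on the strand of the gene, capitals mark the match, on either strand and with overlapping matches joined.
Isg15: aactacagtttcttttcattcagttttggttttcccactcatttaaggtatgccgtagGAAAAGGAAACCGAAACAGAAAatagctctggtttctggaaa
Ifit1: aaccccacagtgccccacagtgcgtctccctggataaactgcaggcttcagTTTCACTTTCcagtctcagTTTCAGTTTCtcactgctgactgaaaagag
Ifit3: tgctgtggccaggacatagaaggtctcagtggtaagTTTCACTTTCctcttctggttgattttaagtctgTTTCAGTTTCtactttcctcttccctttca
Rsad2: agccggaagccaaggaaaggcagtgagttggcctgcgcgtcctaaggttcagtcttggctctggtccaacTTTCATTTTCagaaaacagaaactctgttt
Oas1a: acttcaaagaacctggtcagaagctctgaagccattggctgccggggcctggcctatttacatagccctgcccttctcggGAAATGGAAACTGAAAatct
Ddx60: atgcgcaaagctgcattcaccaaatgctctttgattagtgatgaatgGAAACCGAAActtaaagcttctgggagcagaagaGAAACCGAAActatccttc
Stat2: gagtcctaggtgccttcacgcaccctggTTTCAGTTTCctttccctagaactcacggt
Irf1: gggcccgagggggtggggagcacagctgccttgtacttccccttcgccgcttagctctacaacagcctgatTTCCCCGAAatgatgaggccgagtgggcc
They lie at chr4:156200855-156200954 (minus strand), chr19:34640734-34640833, chr19:34583337-34583436, chr12:26456543-26456642 (minus), chr5:120907526-120907625 (minus), chr8:61927987-61928086, chr10:128270248-128270305 and chr11:53769853-53769952 (plus unless stated), each outside the annotated transcripts of its gene. Isg15 holds 3 overlapping matches that end 56 bases before the start. Oas1a has 2 that end 4 bases before the start, and the nearer of the 2 in Ddx60 ends 9 bases before it. Both matches of Ifit1 and both of Ifit3 lie on the opposite strand. Irf1 shows the TTCNNNGAA element, 81 bases before the start. A match is a description of letters and says nothing of binding in these cells.

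At day 2 after Cre all 39 genes stood higher than in the fibroblasts, and for each of them both day 2 libraries lay above both MEF libraries, against 28.9% of all genes tested. Together the 39 summed to 686 and 1129 CPM in MEF and to 14417 and 14003 CPM at day 2. The median gene stood 16.01-fold above MEF, from 2.74-fold for Irf9 to 535-fold for Oasl1. In edgeR's test 28 of the 39 were called higher, against 2.87% of all genes tested. None was called lower, against 2.65% of all genes, and all 38 genes with an unadjusted p under 0.05 were higher. The median log2 change was 4.00 over the 39 genes and 0 over all genes. DESeq2 called 37. The heatmap of levels shows the day 2 pair as the brightest columns for most genes.

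**Figure D1:**
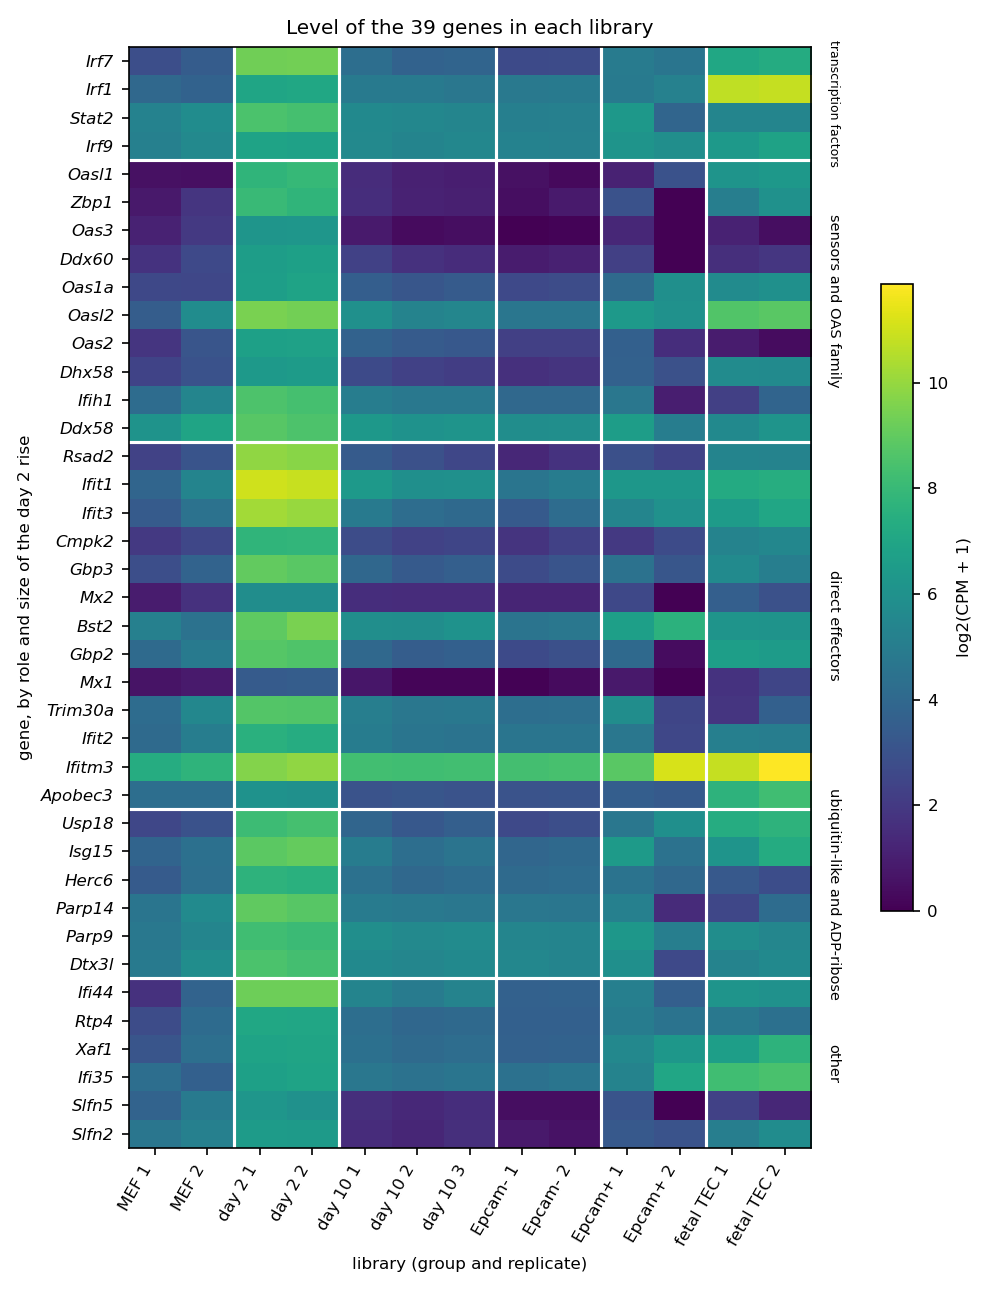
Heatmap of log2(CPM + 1) for the 39 genes (rows, by role and by size of the day 2 change) in the 13 libraries (columns; the numbers are replicates). In 33 of the 39 rows both day 2 libraries are higher than every other library. The share of all genes with this pattern was not computed. Irf1, Apobec3 and Ifi35 are highest in both fetal TEC libraries. Ifitm3 is highest in fetal TEC replicate 2 (3762 CPM), followed by Epcam-positive replicate 2 (2250 CPM) and fetal TEC replicate 1 (1832 CPM).

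Among the transcription factors all 4 members were called higher at day 2. Irf7, the factor that amplifies interferon gene transcription, stood at 6.29 and 10.1 CPM in the MEF libraries and at 636 and 643 CPM at day 2 (log2 change 6.29 ± 0.40, adjusted p = 8.76e-05). Irf1, a factor induced mainly by interferon gamma, went from 15.3 and 12.5 CPM to 126 and 134 CPM (3.23 ± 0.27, adjusted p = 0.000228). The 2 subunits of ISGF3 among the members started higher and rose less. Stat2 stood at 37.9 and 54.4 CPM in fibroblasts and 359 and 336 CPM at day 2 (2.91 ± 0.65, adjusted p = 0.0299). Irf9 stood at 35.2 and 47.7 CPM and then at 116 and 112 CPM (1.46 ± 0.28, adjusted p = 0.0152). For none of the 4 did the groups overlap. The Stat2 call was lost when any single MEF, day 2, day 10 or Epcam-negative library was left out (adjusted p up to 0.169 over the alternatives), and the Irf9 call without MEF replicate 1 or either day 2 library (up to 0.119).

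Of the 10 sensors of nucleic acids and members of the 2′-5′-oligoadenylate synthetase (OAS) family, 7 were called higher. Oasl1, an OAS-like protein without synthetase activity that restrains translation of Irf7, was nearly silent in MEF at 0.470 and 0.401 CPM and reached 220.0 and 246 CPM (9.05 ± 0.93, adjusted p = 0.00065). Zbp1, a sensor of Z-form nucleic acids that can trigger necroptosis, went from 0.733 and 2.53 CPM to 267 and 220.3 CPM (7.23 ± 1.82, adjusted p = 0.0497). The Zbp1 call was lost without any 1 of the MEF, day 2, day 10, Epcam-negative or fetal TEC libraries (up to 0.243). The synthetases make the second messenger that activates RNase L. Oas3 stood at 1.22 and 2.95 CPM and then at 72.7 and 74.7 CPM (5.15 ± 1.61), a gap without overlap that was not called (adjusted p = 0.108). Oas1a changed by 4.48 ± 0.56, Oas2 by 4.36 ± 0.88 and Oasl2 by 4.42 ± 0.68, and all 3 were called.

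The RNA helicases of this group were all detected in the MEF libraries, from 2.34 CPM (Ddx60) to 120.2 CPM (Ddx58). Ddx58, which encodes RIG-I, had the smallest change of the 10 (2.13 ± 0.50, adjusted p = 0.0371), from 66.6 and 120.2 CPM to 442 and 376 CPM. Ifih1, which encodes MDA5, the sensor of long double-stranded RNA, stood at 17.6 and 41.9 CPM in MEF and at 375 and 332 CPM at day 2 (3.57 ± 1.15, adjusted p = 0.118, not called). Dhx58, which encodes LGP2, a helper of MDA5 without a signalling domain, stood at 4.19 and 6.90 CPM and 85.5 and 92.1 CPM (4.00 ± 0.43, adjusted p = 0.000743). Ddx60, a cofactor of RIG-I, went from 2.34 and 5.15 CPM to 96.7 and 107 CPM (4.77 ± 1.48, adjusted p = 0.105, not called). Called and uncalled helicases alike were separated from MEF without overlap.

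The 13 direct effectors held the highest levels, and 8 of them were called. Ifit1, which binds viral RNA with foreign caps, rose from 13.7 and 39.4 CPM to 2069.6 and 1859 CPM (6.21 ± 0.54, adjusted p = 0.000288). Ifit3, its partner, rose from 9.58 and 21.2 CPM to 1191 and 1047 CPM (6.18 ± 0.60, adjusted p = 0.000434). Rsad2, which encodes viperin, an enzyme that makes a chain-terminating nucleotide, rose from 3.99 and 7.602 CPM to 971 and 883 CPM (7.32 ± 0.56, adjusted p = 0.000146). Its neighbour Cmpk2, a mitochondrial nucleotide kinase that is transcribed away from it on chromosome 12, rose from 2.86 and 4.79 CPM to 220.0 and 226 CPM (5.86 ± 0.50, adjusted p = 0.000253). Gbp3, a guanylate-binding GTPase (5.66 ± 0.62), Bst2, which encodes the virion tether tetherin (4.43 ± 0.43), and Ifit2 (2.85 ± 0.66) were called as well. Apobec3, a cytidine deaminase active on retroviral DNA, had the smallest change of the 13 (1.79 ± 0.27, adjusted p = 0.00457), from 18.7 and 18.4 CPM to 66.4 and 62.3 CPM. Per kilobase of transcript the highest day 2 levels of all 39 genes were those of Ifitm3 (1319 CPM per kb), Bst2 (768), Ifit1 (739.6), Isg15 (669) and Ifit3 (641).

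The 5 direct effectors that were not called were Mx1, Mx2, Gbp2, Trim30a and Ifitm3. Gbp2, another guanylate-binding GTPase, stood at 16.1 and 28.6 CPM in fibroblasts and 430.2 and 389 CPM at day 2 (4.198 ± 1.20, adjusted p = 0.0795). Ifitm3, a membrane protein that blocks viral fusion, stood at 162 and 208 CPM and 827 and 962 CPM (2.27 ± 0.64, adjusted p = 0.0743). Mx1, a dynamin-like GTPase, was the least abundant member at day 2, with 9.67 and 10.3 CPM against 0.567 and 0.822 CPM in MEF (3.85 ± 1.57, adjusted p = 0.230). For all 5 both day 2 libraries lay above both MEF libraries.

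In the system of ubiquitin-like Isg15 and of ADP-ribose, 4 of 6 members were called. Isg15, the modifier itself, rose from 13.4 and 19.9 CPM to 472 and 539 CPM (4.92 ± 0.70, adjusted p = 0.00353). Usp18, which removes Isg15 and blocks the interferon receptor, rose from 4.80 and 6.84 CPM to 278 and 326 CPM (5.70 ± 0.51, adjusted p = 0.000317). Herc6, the ligase that attaches Isg15 in the mouse, rose from 9.72 and 19.0 CPM to 201 and 185 CPM (3.74 ± 0.42, adjusted p = 0.000938). So the modifier, its ligase and its protease were all higher. Parp9, an ADP-ribose binding partner of the ubiquitin ligase Dtx3l, was called (3.12 ± 0.43), and Dtx3l was not (3.02 ± 0.86, adjusted p = 0.0798). Their transcripts overlap on opposite strands of chromosome 16, and whether counting used strand is not given, so the 2 cannot be fully separated. Parp14, a mono-ADP-ribosyltransferase, stood at 23.3 and 51.0 CPM and 499.8 and 447 CPM (3.67 ± 1.11, adjusted p = 0.0953, not called).

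Of the remaining 6 genes 5 were called. Ifi44 rose from 2.27 and 12.76 CPM, the widest gap between the MEF replicates of any member (5.63-fold), to 608 and 608 CPM (6.34 ± 0.86, adjusted p = 0.00266). Ifi35 rose from 18.5 and 11.3 CPM to 107 and 119 CPM (2.92 ± 0.51, adjusted p = 0.0103). Rtp4, an inhibitor of type I interferon signalling, rose from 5.69 and 16.6 CPM to 136 and 131 CPM (3.58 ± 0.49, adjusted p = 0.00279). Xaf1, an antagonist of the apoptosis inhibitor Xiap, rose from 7.77 and 18.9 CPM to 118 and 119.8 CPM (3.16 ± 0.50, adjusted p = 0.00588). Slfn2, a Schlafen gene, rose least of the 5, from 24.4 and 34.5 CPM to 89.9 and 87.9 CPM (1.59 ± 0.38, adjusted p = 0.0399), and Slfn5 stood at 12.7 and 27.9 CPM and 74.3 and 63.1 CPM (1.76 ± 1.43, adjusted p = 0.648, not called). The calls for Ifi35 (any single MEF or day 2 library left out, adjusted p up to 0.113) and Slfn2 (any single MEF, day 2, day 10 or Epcam-negative library, up to 0.221) did not hold in every leave-one-out fit.

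The 11 uncalled genes differed from the 28 called ones in the error more than in the size of the change. Their median log2 change was 3.71 with a median standard error of 1.20, against 4.39 and 0.51 for the called genes. Their median transcript was 3979 bases long, against 2290 bases. All groups share 1 estimate of the spread, the wide Epcam-positive pair included. Without either Epcam-positive library, without the 3 libraries that lacked long transcripts, or with MEF and day 2 alone, all 39 genes were called. The day 2 pair itself was tight: the median gene differed 1.10-fold between its libraries and at most 1.47-fold (Bst2), against 1.90-fold between the MEF libraries, where replicate 2 was the higher for 33 of the 39.

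**Figure D2:**
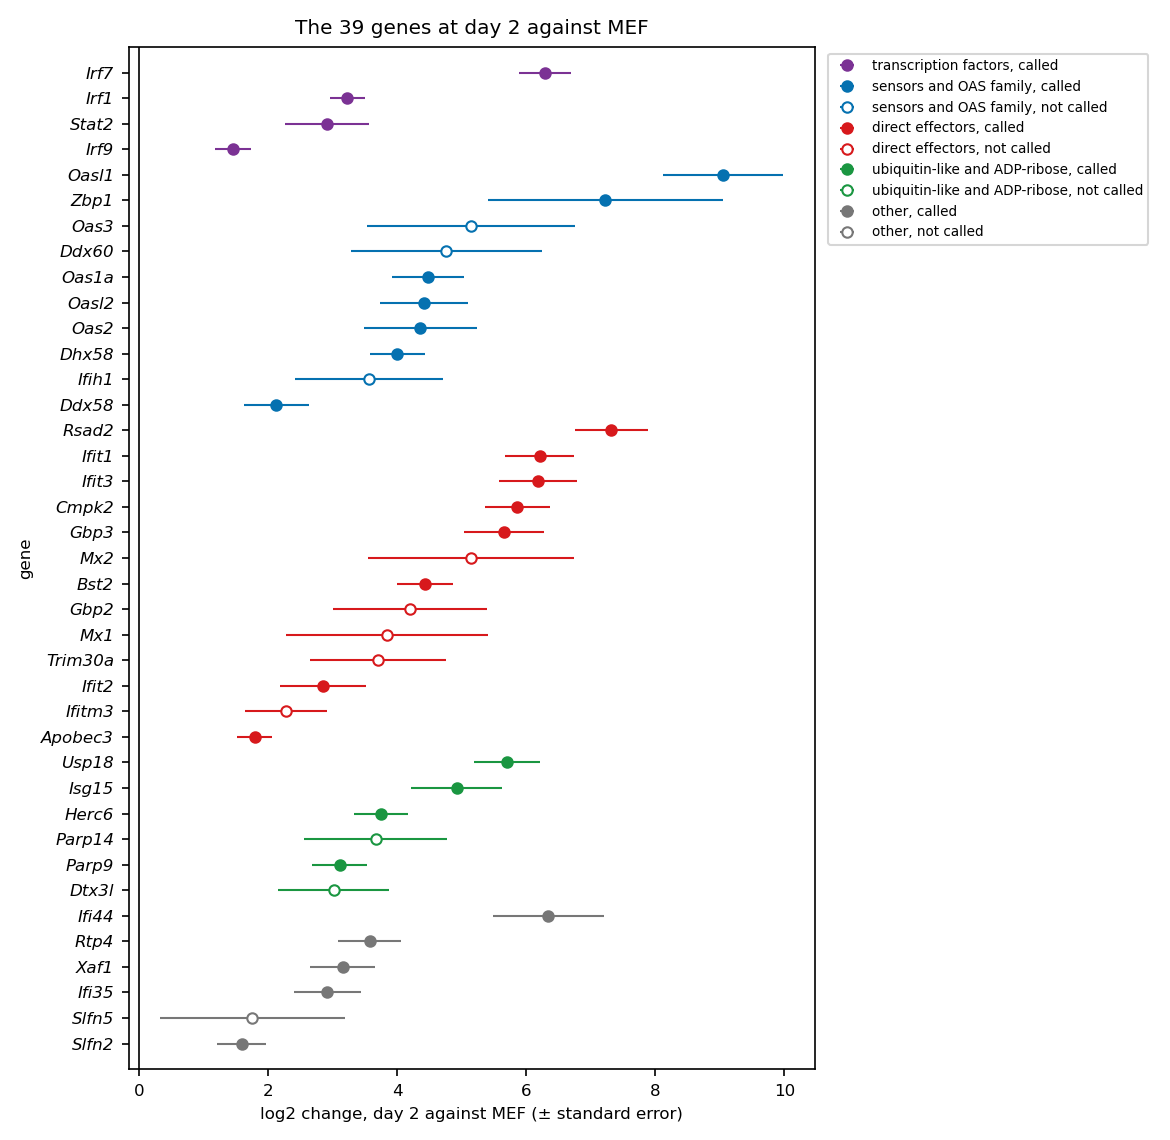
Log2 change at day 2 against MEF for the 39 genes, in the 5 role groups. Points are estimates from edgeR and bars are standard errors; filled points were called. All points lie above 0, from 1.46 (Irf9) to 9.05 (Oasl1), and the 11 open points have a median standard error of 1.20, against 0.51 for the filled ones.

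Genes of families with related copies are less certain as single genes, because the sources used here do not say how shared reads were assigned. How alike the copies are was not examined. Ifit1, Ifit2 and Ifit3 lie side by side on chromosome 19 with further copies, Oas1a, Oas2, Oas3, Oasl1 and Oasl2 are all on chromosome 5, and Gbp2 and Gbp3 adjoin on chromosome 3. The same holds for Trim30a, Slfn2 and Slfn5. Copies of the Ifit family that are not members moved alike: Ifit3b changed by 6.06 ± 0.61 and Ifit1bl2 by 5.58 ± 0.51 at day 2, both called.

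The ligands of the pathway were close to the limit of detection. Of 21 interferon genes, 7 passed the filter. Ifnb1, the interferon beta gene, had 0 counts in both MEF libraries and 12 and 18 counts at day 2, at least 9.20-fold higher when 3 counts are taken as the limit over both MEF libraries. Ifna4, an interferon alpha gene, had 0 counts in MEF and 2 and 7 at day 2. None of the 7 was called by edgeR at day 2, where 2 had an unadjusted p under 0.05 (Ifnb1, adjusted p = 0.163, and Ifna4, adjusted p = 0.256), and none by DESeq2. At day 10 Ifnb1 and Ifna4 had 0 counts in all 3 libraries.

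The receptor and kinase genes moved little by count: at day 2, 1 of 17 was called higher and 1 lower, with a median log2 change of 0.15. The 1 higher was Socs3, an inhibitor of cytokine receptors, at 34.6 and 17.2 CPM in fibroblasts and 117 and 119 CPM at day 2 (2.19 ± 0.47, adjusted p = 0.0267). Ptpn6, a phosphatase typical of blood cells, fell from 29.4 and 40.0 CPM to 0.236 and 0.104 CPM (-7.68 ± 0.56, adjusted p = 0.000146). Of 31 further genes of nucleic acid sensing, 4 were called higher and 3 lower, with a median of 0.49. The higher ones were Nlrc5, the class I transactivator (4.495 ± 0.69, adjusted p = 0.00511), Trex1, a DNA exonuclease (2.52 ± 0.40, adjusted p = 0.00618), Tmem173, which encodes STING (1.40 ± 0.29, adjusted p = 0.0227), and Adar, which edits double-stranded RNA (2.51 ± 0.59, adjusted p = 0.0371). Of 70 tested genes in a wider list of interferon-induced genes, 37 were called higher and 1 lower, with a median of 2.54. The GTPase genes Tgtp1 (8.59), Tgtp2 (8.05), Ifi47 (5.43) and Irgm1 (3.87) led that list by p-value.

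Markers of macrophages moved in the opposite direction to the 39 genes between MEF and day 2. The list has 20 genes, which summed to 3886 and 4222 CPM in MEF and to 27.4 and 29.3 CPM at day 2, where 11 and 8 of the 20 were at 0. Lyz2, a lysozyme of macrophages, went from 1479 and 1424 CPM to 0.0907 and 0.104 CPM, and Adgre1, which encodes F4/80, from 117 and 154 CPM to 0 in both. The list summed to 30.7 to 34.3 CPM at day 10, 63.6 and 79.1 CPM in Epcam-negative cells and 381 and 348 CPM in Epcam-positive cells. These last 2 sums are not alike in make-up: 0 of the 20 genes were at 0 in Epcam-positive replicate 1 and 12 in replicate 2. Of 8 genes for plasmacytoid dendritic cells, a cell type that makes much interferon, Siglech was at 0 in all 13 libraries. The list summed to 453 and 509.6 CPM in MEF and to 684 and 893 CPM at day 2. It includes Bst2, itself 1 of the 39 genes, which went from 35.0 and 21.2 CPM to 492 and 724 CPM. The higher sum at day 2 thus counts the rise of a member and is no measure of these cells. The 10 fibroblast genes summed to 59115 and 64744 CPM in fibroblasts and 6856 and 7965 CPM at day 2. What part these cells had in the levels of the 39 genes was not tested. In bulk RNA a change in the number of cells of a type and a change in RNA per cell cannot be told apart.

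By day 10 the rise was almost gone. The 39 genes summed to 1258, 1046 and 1109.6 CPM, and each of them was lower in all 3 day 10 libraries than in both day 2 libraries, against 35% of all genes. In edgeR's test 38 of 39 fell, against 4.41% of all genes tested, and none rose, against 8.24%, with a median log2 change of -4.08 against 0.02 over all genes. The member not called was Ifitm3, at 311, 298 and 312 CPM (-1.54 ± 0.55, adjusted p = 0.103). The count was 21 without day 2 replicate 1, 23 without day 2 replicate 2 and 25 without day 10 replicate 2 or 3. Expressed as a share of the day 2 rise over the MEF mean, a median of 0.60% was left at day 10. The share was between 0 and 10% for 23 genes, and 14 genes stood below their MEF mean. The 2 others were Ifitm3 (17.2%) and Irf1 (11.7%).

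Genes with large rises at day 2 kept little of the rise by day 10, though some stayed above MEF. Irf7 stood at 18.7, 12.4 and 13.3 CPM in the day 10 libraries, 1.04% of its rise (-5.43 ± 0.32, adjusted p = 4.12e-05, day 10 against day 2). Oasl1 stood at 1.86, 1.13 and 0.983 CPM (-7.45 ± 0.72, adjusted p = 0.000279). Rsad2 stood at 9.80, 6.82 and 4.86 CPM (-7.02 ± 0.46, adjusted p = 6.23e-05). All 3 libraries of Irf7 (1.81-fold over the MEF mean) and Oasl1 (3.04-fold) remained above both MEF libraries, while those of Rsad2 overlapped MEF. Ifit1 stood at 84.1, 59.2 and 62.3 CPM (-4.84 ± 0.43, adjusted p = 0.000186), Isg15 at 30.5, 18.7 and 23.1 CPM (-4.39 ± 0.58, adjusted p = 0.00126) and Usp18 at 13.49, 8.58 and 11.1 CPM (-4.77 ± 0.41, adjusted p = 0.000163). Ifit1 (2.58-fold) and Usp18 (1.90-fold) were still above both MEF libraries in all 3, and Isg15 overlapped them. Stat2 at 48.9, 44.0 and 41.9 CPM and Irf9 at 47.0, 40.5 and 44.7 CPM lay between their MEF libraries in all 3 cases. Zbp1 at 1.97, 1.23 and 1.09 CPM (-7.41 ± 1.52, adjusted p = 0.0118) and Oas3 at 0.821, 0.256 and 0.362 CPM (-7.24 ± 1.49, adjusted p = 0.0118) were back at or under their MEF levels. Both calls were lost without either day 2 library or without day 10 replicate 2 or 3 (adjusted p up to 0.0616 and 0.0662), the call of Stat2 without day 2 replicate 1 (0.0574) and that of Irf9 without either day 2 library (up to 0.0675).

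Set against MEF directly, day 10 showed few differences. Of the 39 genes 2 were called higher (against 9.42% of all genes) and 2 lower (against 6.58%), shares below those of all genes, and the median log2 change was 0.29 against 0. All 3 day 10 libraries lay above both MEF libraries for 12 genes (against 35.3% of all genes), below them for 5 (against 33% of all genes) and overlapped them for 22. The genes called higher were Irf1, at 28.9, 27.9 and 25.5 CPM (0.98 ± 0.24, adjusted p = 0.0205), and Ifi44, at 40.1, 29.6 and 38.2 CPM (2.26 ± 0.68, adjusted p = 0.0499). Those lower were Apobec3, at 7.32, 7.94 and 7.14 CPM against 18.7 and 18.4 CPM in MEF (-1.31 ± 0.24, adjusted p = 0.00549), and Slfn2, at 1.89, 1.38 and 1.99 CPM against 24.4 and 34.5 CPM (-4.07 ± 0.36, adjusted p = 0.00013). Slfn2, needed for the survival of resting T cells and monocytes, thus fell to 0.0595-fold of its MEF level after having been 3.02-fold above it at day 2. Slfn5 stood at 2.06, 1.59 and 1.97 CPM, below both MEF libraries (-3.44 ± 1.32, adjusted p = 0.112, not called). The count of called genes was 2, both lower, without MEF replicate 1, any day 10 library or either Epcam-negative library. It was 14, of which 10 were higher and 4 lower, without either Epcam-positive library. The calls for Irf1 and Ifi44 were lost in most of these fits (adjusted p up to 0.147 and 0.141), and those for Apobec3 and Slfn2 in none of them. With library size alone in place of TMM it was 4 higher and 2 lower, and with a length offset 1 higher and 3 lower.

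Epcam-negative cells of day 12 had the lowest levels after the peak. The 39 genes summed to 855 and 907 CPM, inside the range of the MEF libraries. Against day 2, 35 of 39 fell (against 3.65% of all genes) and none rose (against 6.61%), with a median log2 change of -4.85 against 0.04. For all 39 both libraries lay below both day 2 libraries, against 35% of all genes. The 4 not called were Mx1, Mx2, Ifitm3 and Dtx3l. The count was 22 without day 2 replicate 1 and 21 without either Epcam-negative library. Of the day 2 rise a median of -0.45% was left, and 30 of the 39 genes stood below their MEF mean. Only Ifitm3 (20.4%) and Irf1 (11.6%) kept 10% or more.

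Against MEF, 1 gene was called higher in Epcam-negative cells (against 7.37% of all genes) and 3 lower (against 4.53%). The higher one was again Irf1, at 27.2 and 27.6 CPM (0.98 ± 0.25, adjusted p = 0.0341). Rsad2 at 1.48 and 2.31 CPM (-1.61 ± 0.44, adjusted p = 0.0425), Apobec3 at 7.23 and 7.56 CPM (-1.33 ± 0.27, adjusted p = 0.0122) and Slfn2 at 0.747 and 0.480 CPM (-5.59 ± 0.46, adjusted p = 9.81e-05) were lower. Both libraries lay below both MEF libraries for 13 genes (against 32.8% of all genes) and above them for 4 (against 37% of all genes). Oas3, with 0 counts in 1 Epcam-negative library and 0.0701 CPM in the other, and Slfn5, at 0.359 and 0.360 CPM, were among the 13 without being called (adjusted p = 0.0669 and 0.0579). The count of 4 was 1 without MEF replicate 2 or either Epcam-negative library, 2 without any 1 of the day 2 or day 10 libraries, and 9, of which 8 were lower, without either Epcam-positive library. The calls for Irf1, Rsad2 and Apobec3 were each lost in several of these fits (adjusted p up to 0.193, 0.295 and 0.123 over the alternatives), and the call for Slfn2 in none.

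**Figure D3:**
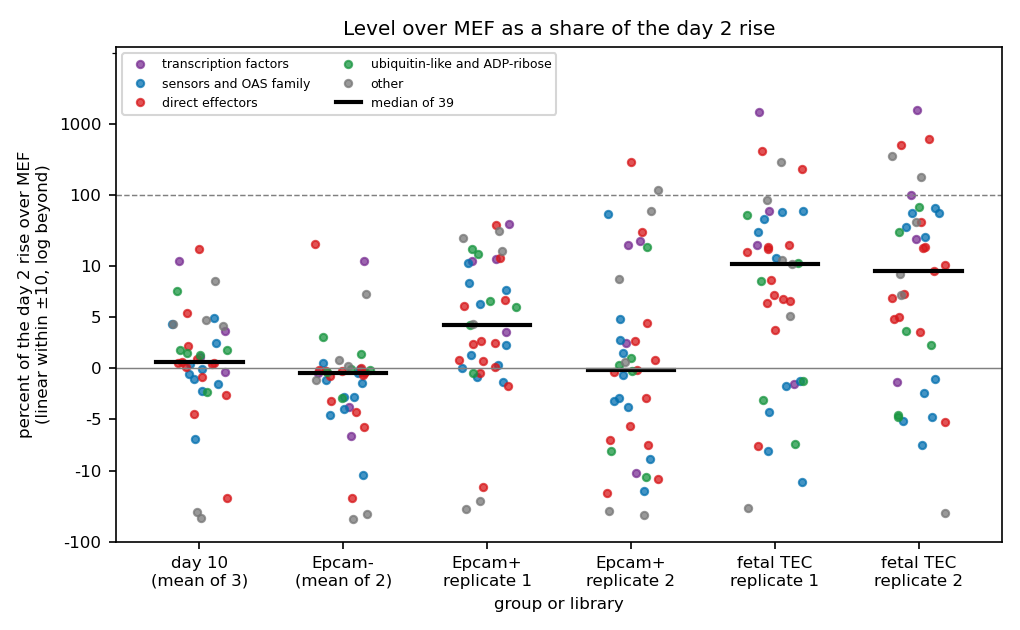
Level over the MEF mean as a percent of the day 2 rise for each of the 39 genes (points, coloured by role), for the day 10 and Epcam-negative means and for single Epcam-positive and fetal TEC libraries; bars are medians, and the axis is linear within ±10 and logarithmic beyond. Medians are 0.60% at day 10, -0.45% in Epcam-negative cells, and 4.22% and -0.18% in Epcam-positive replicates 1 and 2.

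The 2 Epcam-positive libraries of day 12 went apart and are described one by one. Replicate 1 had levels above the day 10 mean for 33 of the 39 genes, 1.66-fold for the median gene. Its Isg15 stood at 87.4 CPM and its Xaf1 at 45.6 CPM, against 30.5, 18.7 and 23.1 and 19.6, 16.2 and 17.997 CPM at day 10. Of the day 2 rise a median of 4.22% was left in it, the highest share being that of Irf9 (38.5%). Macrophage genes were also higher in this library. Lyz2 stood at 76.1 CPM there, against at most 0.216 CPM in the day 2, day 10 and Epcam-negative libraries. The 10 fibroblast genes summed to 30775 CPM in replicate 1, 2840 CPM in replicate 2, and 11316 and 10522 CPM in Epcam-negative libraries. In the same order 12 marker genes of TEC summed to 4485, 42652.5, and 4255 and 4462 CPM. The part of such differences in the levels of the 39 genes was not tested.

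Replicate 2, the library that lacked long transcripts, had 18 of the 39 genes above the day 10 mean, 0.853-fold for the median gene, and 6 at 0 counts (Ddx60, Zbp1, Oas3, Mx1, Mx2 and Slfn5). Of the day 2 rise a median of -0.18% was left in it, but the shares of Ifitm3 (291%), Ifi35 (117%), Xaf1 (59.5%) and Oas1a (53.1%) were above 50%. Ifitm3 reached 2250.3 CPM, Bst2 199 CPM, Ifi35 129.6 CPM and Usp18 59.9 CPM. In replicate 1 the same 4 genes stood at 453, 102, 38.6 and 25.1 CPM. The median gene differed 2.39-fold between the 2 libraries and Gbp2 47.0-fold (15.7 and 0.334 CPM).

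Tested as a pair, Epcam-positive cells were below day 2 for 31 of 39 genes (against 4.16% of all genes) and, in edgeR's test, above it for none (against 14.1%). Both libraries lay below both day 2 libraries for 37 genes (against 28% of all genes) and above them for none (against 27.6%). The median was -3.53 against 0.11, and 36 genes had an unadjusted p under 0.05. The count was 16 without day 2 replicate 1, 17 without day 2 replicate 2, and 0 with only these 2 groups in the fit, where 28 had an unadjusted p under 0.05. Against MEF, 11 were called higher (against 15.9% of all genes) and 2, Apobec3 and Slfn2, lower (against 4.4% of all genes), and 17 had an unadjusted p under 0.05. Both libraries lay above both MEF libraries for 15 genes (against 26.6% of all genes) and below them for 4 (against 28.8%). Those higher with the smallest p were Usp18 (2.87 ± 0.45, adjusted p = 0.00317), Bst2 (2.42 ± 0.39, adjusted p = 0.00387), Oas1a (2.97 ± 0.53, adjusted p = 0.00593) and Irf7 (1.71 ± 0.33, adjusted p = 0.00865). The count of 13 was 6 without MEF replicate 1, 7 without MEF replicate 2 and 0 with only the 2 groups, where 6 had an unadjusted p under 0.05. Without Epcam-positive replicate 1 it was 27, of which 11 were higher and 16 lower, and the median change went from 0.61 to -0.03. The Irf7 call was lost without MEF replicate 1.

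Between the sorted fractions, 4 genes were called higher in Epcam-positive cells (against 0.241% of all genes) and none lower (against 0.0176%). The median log2 difference was 1.20 over the 39 genes and 0 over all genes, and 20 of the 39 did not overlap, all of them higher in Epcam-positive cells (against 21% of all genes higher and 24.4% lower). Irf7 stood at 30.2 and 23.6 CPM in Epcam-positive and 5.39 and 5.61 CPM in Epcam-negative libraries (2.29 ± 0.33, adjusted p = 0.0428). Usp18 stood at 25.1 and 59.9 against 5.07 and 6.31 CPM (2.90 ± 0.45, adjusted p = 0.0471). Slfn2 stood at 9.09 and 7.21 against 0.747 and 0.480 CPM (3.73 ± 0.42, adjusted p = 0.0200), and Bst2 at 102 and 199 against 22.9 and 24.8 CPM (2.65 ± 0.40, adjusted p = 0.0453). All 4 were higher in both Epcam-positive libraries. The count was 0 without any 1 of the day 2, day 10 or Epcam-negative libraries, 1 without MEF replicate 1 or either fetal TEC library, 2 without MEF replicate 2, and 11, all higher, without Epcam-positive replicate 2. Without Epcam-positive replicate 1 it was 23, of which 13 were higher and 10 lower, and the median difference was 0.32 against -0.37 over all genes. DESeq2 called 16 of the 39, and with only the 2 groups edgeR called 0, where 10 had an unadjusted p under 0.05. The sex of the embryos differed between these fractions as well.

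Fetal TEC, labelled as untreated, carried part of the set at high level. The 39 genes summed to 6117 and 8794 CPM. Against MEF, 21 were called higher (against 31.5% of all genes) and 1, Oas2, lower (against 26.3%), with a median log2 change of 2.31 against 0.18 over all genes. Against day 10 iTEC, 22 were called higher (against 31.7% of all genes) and 2, Oas2 and Herc6, lower (against 27.6%), with a median of 2.21 against 0.10. Both fetal TEC libraries lay above both MEF libraries for 26 genes (against 41.7% of all genes) and below them for 7 (against 38.2%). They lay above all 3 day 10 libraries for 27 genes (against 42.1%) and below them for 5 (against 41.5%). These 2 comparisons share the fetal TEC libraries, and 57.8% and 59.3% of all genes were called in them.

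For 4 of the 39 genes both fetal TEC libraries exceeded both day 2 libraries. The share of all genes with this pattern was not computed. These 4 have transcripts of 678 to 2168.5 bases, below the median of 2656 bases over the 39 genes. The fetal TEC libraries lacked long transcripts, so the excess in CPM includes any effect of length. Irf1 stood at 1688 and 1829.9 CPM, against 126 and 134 CPM at day 2, and was 64.0-fold above the day 10 mean (6.001 ± 0.26, adjusted p = 6.43e-06, fetal TEC against day 10). Apobec3 stood at 205 and 298 CPM, 3.91-fold above the day 2 mean (5.07 ± 0.26, adjusted p = 7.16e-06). Ifitm3 stood at 1832 and 3762 CPM, 3.13-fold above day 2 (3.19 ± 0.57, adjusted p = 0.00170). Ifi35 stood at 301 and 353 CPM, 2.89-fold above day 2 (3.81 ± 0.45, adjusted p = 0.000241). Irf1, with the largest excess over day 2, had a rise at day 2 below the median of the 39 genes.

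**Figure D4:**
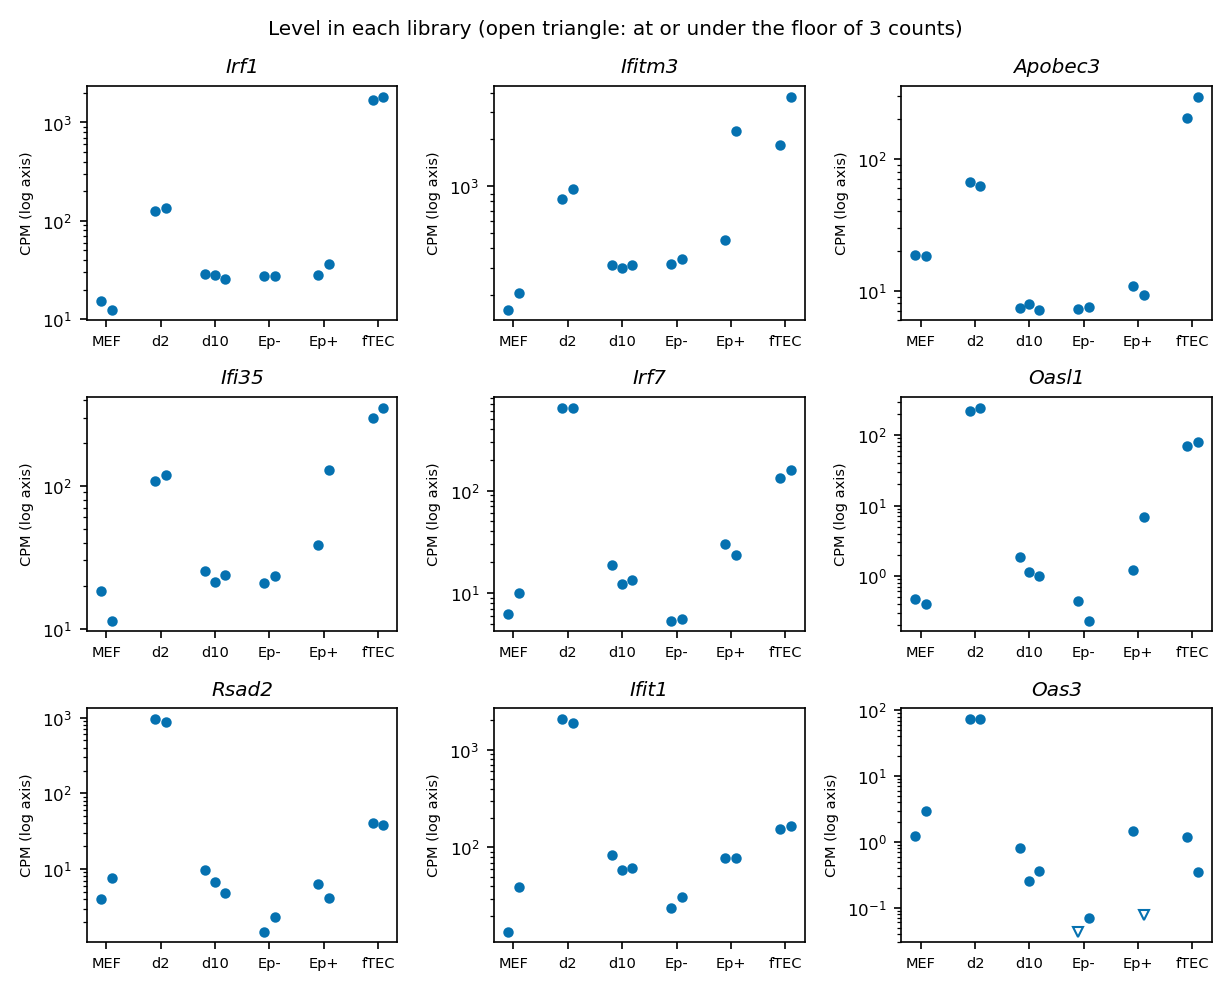
CPM in each library (points, log axes that differ between panels) for the 4 genes with fetal TEC above day 2 (Irf1, Ifitm3, Apobec3, Ifi35) and for Irf7, Oasl1, Rsad2, Ifit1 and Oas3; d2 and d10 are day 2 and day 10, Ep- and Ep+ the sorted day 12 cells, fTEC fetal TEC. Irf7, Oasl1, Rsad2 and Ifit1 peak at day 2 with fetal TEC in second place. Oas3, a long transcript, is low both in fetal TEC and at day 10.

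A further set was higher in fetal TEC than at day 10 but stayed below day 2. Oasl1 stood at 69.8 and 80.9 CPM (5.82 ± 0.68, adjusted p = 0.000207), Usp18 at 160.5 and 203 CPM (4.04 ± 0.40, adjusted p = 9.59e-05) and Irf7 at 132 and 158 CPM (3.29 ± 0.30, adjusted p = 5.81e-05). Oasl2, the second OAS-like gene, stood at 408 and 453 CPM (3.18 ± 0.55, adjusted p = 0.00147), against 709 and 653 CPM at day 2. Zbp1 stood at 32.8 and 62.9 CPM (5.06 ± 1.39, adjusted p = 0.0120) and Slfn2 at 32.5 and 54.1 CPM (4.62 ± 0.37, adjusted p = 2.85e-05). All of these were above every day 10 library. Slfn2 had fallen below MEF at day 10, and fetal TEC differed little from MEF in it: 1.47-fold, 0.56 ± 0.37, adjusted p = 0.219, not called, and -0.83 ± 0.41, adjusted p = 0.109 with a length offset. Dhx58, at 52.4 and 50.9 CPM (3.60 ± 0.36, adjusted p = 9.1e-05), was the RNA helicase that rose, while Ddx58 at 48.5 and 69.8 CPM (-0.27 ± 0.44, adjusted p = 0.607) and Ifih1 at 3.69 and 13.2 CPM (-1.74 ± 1.015, adjusted p = 0.162) did not pass the test. The effectors Ifit1 at 153 and 167 CPM and Rsad2 at 40.3 and 38.4 CPM stood at 0.08- and 0.04-fold of day 2, though both were called above day 10 (1.23 ± 0.39 and 2.46 ± 0.39). The Ifit1 call was lost without day 10 replicate 2 or 3 or either fetal TEC library (adjusted p up to 0.0870) and with the length offset described next (0.89 ± 0.43, adjusted p = 0.104).

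Other members were low in fetal TEC. Oas2 stood at 0.888 and 0.325 CPM, below all 11 other libraries (-4.06 ± 0.85, adjusted p = 0.00365). Oas3 stood at 1.18 and 0.345 CPM, Ddx60 at 2.01 and 2.70 CPM and Parp14 at 4.76 and 17.3 CPM. Herc6 at 8.91 and 5.94 CPM was lower than at day 10 (-1.24 ± 0.36, adjusted p = 0.0148), a call that was lost without fetal TEC replicate 2. Stat2 at 41.6 and 42.0 CPM differed from day 10 by less than its standard error (-0.11 ± 0.55).

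Transcript length and the change in fetal TEC went together, and the fetal TEC libraries lacked long transcripts. Across the 39 genes Spearman's rho between median transcript length and the log2 change against day 10 was -0.665, and across all tested genes it was -0.336; these are descriptions across genes of the same libraries. Of the 19 shorter members 16 were called higher and none lower, with a median of 3.19, and of the 19 longer members 5 were called higher and 2 lower, with a median of -0.08. With a length offset for each library the medians were 2.35 and 1.11 and rho was -0.250. Under the offset 23 members were called, 21 higher and 2 lower. Irf1 (5.19 ± 0.28, adjusted p = 3.29e-06), Oasl1 (5.07 ± 0.70, adjusted p = 0.000331), Apobec3 (4.34 ± 0.29, adjusted p = 7.8e-06), Ifitm3 (1.65 ± 0.52, adjusted p = 0.0233) and Ifi35 (2.47 ± 0.42, adjusted p = 0.00104) stayed higher. Stat2 became higher (1.11 ± 0.27, adjusted p = 0.00671), Isg15 (0.70 ± 0.53, adjusted p = 0.285) and Irf9 (0.65 ± 0.29, adjusted p = 0.0772) were no longer called, Bst2 became lower (-1.32 ± 0.33, adjusted p = 0.00800), and the change of Herc6 turned positive (0.17 ± 0.46, adjusted p = 0.773). Oas2 stayed lower (-3.28 ± 0.58, adjusted p = 0.00128). Against MEF, the 4 genes that exceeded day 2 in CPM changed under the offset by 5.99 (Irf1), 2.83 (Apobec3), 2.87 (Ifi35) and 1.95 (Ifitm3). For Ifi35 and Ifitm3 these values are below the day 2 changes given above, which are without the offset. Fetal TEC against day 2 was not tested.

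**Figure D5:**
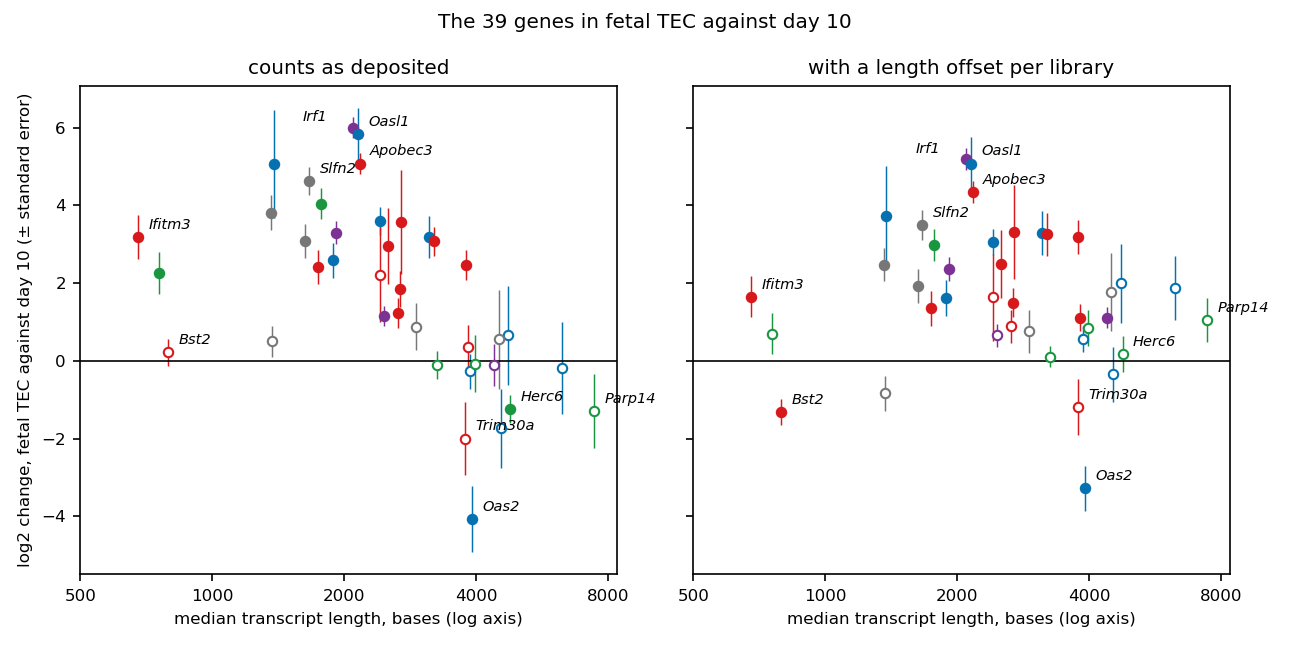
Log2 change in fetal TEC against day 10 (± standard error) for the 39 genes against median transcript length (log axis), from the counts as deposited (left) and with a length offset per library (right); colours are the role groups of the plot of day 2 changes and filled points were called. Irf1, Oasl1 and Apobec3 stay above 4 in both panels and Oas2 below -3, while the long genes Parp14 and Herc6 cross 0.

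Interferon genes themselves were detected in fetal TEC. Ifna4 had 99 and 254 counts, Ifnb1 54 and 3, Ifnl2 11 and 631, Ifnl3 137 and 191 and Ifng 38 and 30, all with 0 counts in both MEF libraries. Of the 7 tested ligand genes 5 were called higher than in MEF by edgeR (against 31.5% of all genes), and DESeq2 called 2 of the 7. Ifng, Ifnl2 and Ifnl3 had 0 counts in every library of the other groups, and Ifna4 at most 7. They passed the filter on low counts only through fetal TEC, so the number of ligand genes called adds nothing to the counts themselves. With 3 counts as the limit over MEF, Ifna4 was at least 136-fold and Ifnl3 at least 122-fold higher. Ifnb1 and Ifnl2 rest mostly on 1 of the 2 libraries each, and not the same one. Isg20, an exonuclease of the wider interferon list, stood at 452 and 752 CPM against 18.8 and 16.5 CPM at day 2 (6.84 ± 0.51, adjusted p = 3.63e-05, against MEF). Ifngr1, a chain of the interferon gamma receptor, stood at 206 and 112 CPM (1.56 ± 0.32, adjusted p = 0.00377) and Trex1 at 181 and 231 CPM (4.82 ± 0.45, adjusted p = 8.9e-05).

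Fetal TEC libraries also held RNA of other cells. The list of 15 thymocyte and lymphocyte markers summed to 1446 and 677 CPM with 0 and 1 of them at 0. In the other libraries it summed to 5.73 to 1112 CPM and 9 to 13 of the 15 were at 0. The highest of these sums were those of MEF (607 and 1112 CPM), with 12 of the 15 at 0 in each library. Thy1 is on this list and on the fibroblast list, so the sum alone does not measure lymphocytes. The macrophage and dendritic cell list came to 20431 and 42899.8 CPM, most of it Cd74 (19476 and 41833 CPM), a class II chaperone that TEC make too. Lyz2 stood at 309 and 424 CPM, and 6 neutrophil genes reached 155 and 151 CPM against at most 0.0929 CPM elsewhere. The 12 TEC genes summed to 33440.1 and 50040.4 CPM, against 5319, 5171 and 5662 CPM at day 10. The part of the other cells in the levels of the 39 genes was not tested.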

How the data were processed

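Members, role groups and gene lists were chosen with earlier results of these data known. The authors deposited raw counts per gene symbol for 13 libraries; FastQC, Trimmomatic, HISAT2, SAMtools, StringTie and DESeq2 and the mm10 build are named per the submitters' processing notes, without settings. The columns marked No_Cre were assigned to MEF because no other group lacked a column. Counts were tested with edgeR 4.0.16 in R 4.3.3: TMM factors (0.705 to 1.16), filterByExpr by group (17004 genes), 1 robust quasi-likelihood fit with a mean per group, F tests for 10 comparisons and Benjamini-Hochberg adjustment, called under 0.05. Steps were tested on simulated data. Gene positions and transcript lengths are from GENCODE M21, promoters from RefSeq. Genes given by library were the 4 transcription factors, up to 4 of each other role with the largest day 2 change and the 8 highest in fetal TEC against day 10; others were named after their values were seen or at the end of a range. Pathway genes were named by smallest p. Alternatives were other scaling (DESeq2 1.42.0 size factors, library size), filters, the DESeq2 Wald test, a length offset, fits of fewer libraries and replicate blocks.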

Additional observations from a re-analysis of the deposited data

How the results depend on the processing

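Of 3047 values of single genes under alternatives (140 genes and comparisons), 2706 kept direction and call, 340 kept the direction without the call and 1 reversed: Herc6 in fetal TEC against day 10, 0.17 with a length offset. With 1 library left out, the members called ranged as follows: day 2 against MEF 20 to 39, day 10 against day 2 21 to 39, day 10 against MEF 2 to 14, Epcam-negative against day 2 21 to 39 and against MEF 1 to 9, Epcam-positive against day 2 16 to 37, against MEF 6 to 27 and against Epcam-negative 0 to 23, fetal TEC against MEF 19 to 31 and against day 10 19 to 28. The highest counts of the 3 Epcam-positive comparisons came without Epcam-positive replicate 1 and were not of 1 direction: 1 higher and 36 lower, 11 and 16, and 13 and 10. Where a group was left with 1 library, that library is assumed to vary like the other groups. Without the 3 libraries that lacked long transcripts the count was 16 for day 10 against MEF, 12 for Epcam-negative against MEF, 22 for Epcam-positive against MEF and 17 for Epcam-positive against Epcam-negative, with 11, 3, 19 and 17 of these higher. With only the 2 groups compared it was 10, 8, 0 and 0 in the same order, and 0 for Epcam-positive against day 2. The DESeq2 Wald test called 8 for day 10 against MEF, 7 for Epcam-negative against MEF and 16 for Epcam-positive against Epcam-negative, and library size alone gave 1 in that last comparison. Causes were not tested, beyond the smaller number of libraries in some fits. With library size alone the median of all genes moved from 0 to -0.24 for Epcam-positive against Epcam-negative from 0 to 0.23 for Epcam-negative against MEF, from 0 to 0.12 for day 10 against MEF, from 0.10 to -0.17 for fetal TEC against day 10 and from 0.18 to 0.04 for fetal TEC against MEF. With DESeq2 size factors the last 2 were 0.25 and 0.32.

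Replicate numbers pair nothing according to the labels, and deviations of same-numbered libraries correlated at -0.215 to 0.116. With a replicate block the count was 21 for day 2 against MEF, 21 for day 10 against day 2, 1 for day 10 against MEF, 26 for Epcam-negative against day 2, 1 for Epcam-negative against MEF, 22 for Epcam-positive against day 2, 6 for Epcam-positive against MEF, 0 for Epcam-positive against Epcam-negative (17 had an unadjusted p under 0.05), 21 for fetal TEC against MEF and 19 for fetal TEC against day 10.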
